A study of Homo sapiens with 12 samples.

Results

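The genes described here build and operate the mitotic spindle. They encode kinetochore and centromere proteins, the chromosomal passenger complex, the spindle checkpoint, spindle assembly factors, the contractile and midzone machinery of cytokinesis, condensin and other proteins of the mitotic chromosome, and regulators of mitotic entry. They were chosen by name: 56 genes were listed, and 53 of them had a probe set that carries their symbol alone, 1 probe set each. BUB1B, CENPA and SPAG5 were represented only by probe sets shared with PAK6, SLC35F6 and RSKR, and were not tested. All 53 passed the filter on low values, among 20572 genes that passed it.

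The study used MDA-MB-231, a human breast carcinoma line isolated from a pleural effusion and of triple-negative, mesenchymal type. The study compared 4 conditions, with 3 arrays of total RNA in each: apigenin at 40 µM, TNFα at 40 ng/ml together with apigenin at 40 µM, TNFα alone at 40 ng/ml, and untreated control cells. Cells of the treated groups were collected after 24 h. Apigenin is a plant flavone, and TNFα is an inflammatory cytokine that signals through NF-κB. Nothing in the labels says that the 3 arrays of a group are separate cultures, and the p-values therefore cover only the variation among these arrays, possibly technical.

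Expression is given on a log2 scale for each probe set, so a difference of 1 is a 2-fold change. A probe set's level cannot be set strictly against that of another, and each gene was compared with itself across arrays. The marker levels below are only a rough check of the labelled line. A gene was called changed when its adjusted p in limma was below 0.05 over the 20572 genes. Where arrays of 2 groups are said not to overlap, this only describes the values shown. Many of the genes shown were picked by the size of their difference. With 3 arrays against 3, an exact rank test cannot give a p below 0.1. The share of all genes without overlap was not counted. Array medians lay between 2.09 and 2.16, and arrays correlated at 0.983 to 0.991 within a group and at 0.966 to 0.99 between groups. Of the 8 mesenchymal markers listed for the line, AXL (9.88 to 10.19), MSN (9.58 to 10.34), VIM (7.93 to 8.3), CD44 (7.29 to 8.32) and CAV1 (6.43 to 7.19) read high on every array, ITGB1 (5.73 to 5.97) and TGFBI (3.95 to 4.23) lower, and SPARC near the middle of all genes (2.38 to 2.73). Of 9 luminal markers, ESR1, PGR, CDH1 and FOXA1 lay between 1.37 and 2.44. KRT19 (4.38 to 5.97), GATA3 (3.65 to 4.67), SPDEF (2.67 to 4.66), KRT18 (2.93 to 4.04) and KRT8 (2.64 to 3.66) read higher. Of the leukocyte markers that passed the filter, CD68 read 9.52 to 9.95, while CD14, CD79A and LYZ lay between 1.51 and 3.01. The median of the luminal markers was lower in the groups with apigenin: 2.64 to 3.19 with apigenin, 2.68 to 2.89 with both agents, 3.25 to 3.48 with TNFα and 3.24 to 3.53 in controls. The median of the mesenchymal markers was lower there as well, at 6.89 to 7.0 with apigenin, 7.02 to 7.07 with both agents, 7.48 to 7.60 with TNFα and 7.29 to 7.55 in controls. The median of 194 small nucleolar and Cajal body RNA probe sets also moved between arrays: 5.95 to 6.81 with apigenin, 5.97 to 6.07 with both agents, 4.96 to 6.28 with TNFα and 5.62 to 5.89 in controls. The part of the marker shifts in the results below was not tested. For the small RNAs, a fit with their median as a covariate is given beside the counts of comparisons that had calls. Every apigenin array had a higher small RNA median than every control array, so this fit cannot fully separate that shift from apigenin. Values from this fit are also given for each of the 53 genes that loses its apigenin call in it.

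In mitosis, microtubules of the spindle attach to chromosomes at kinetochores, the checkpoint holds back anaphase until every kinetochore is attached, separase then opens the cohesin rings, and the cell is pinched apart at the spindle midzone. The RNAs of this machinery are made late in the cell cycle, in G2 and mitosis, and are held low in resting and G1 cells by the DREAM complex. DREAM and its activating counterpart of MYBL2 and FOXM1 reach many of these promoters through an element called the CHR, often beside CCAAT boxes bound by NF-Y.

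Promoters of 5 members are shown to make that architecture visible. They were chosen after the expression values were seen: ASPM, NDC80 and MKI67 fell with apigenin and hold a CHR element, CDCA5 rose and also holds one, and CENPE had the largest fall and holds none here. The windows run 5′ to 3′ on the gene's strand from 150 bases before to 20 bases after the annotated start (RefSeq, GRCh38.p14). ASPM lies at chr1:197146650-197146819 (minus strand), NDC80 at chr18:2571407-2571576 (plus), MKI67 at chr10:128126404-128126573 (minus), CDCA5 at chr11:65084021-65084190 (minus) and CENPE at chr4:103198324-103198493 (minus). Capitals mark matches to the CHR letters TTTGAA or TTCGAA and to the CCAAT box, on either strand, so that TTCAAA and ATTGG are also in capitals.
ASPM: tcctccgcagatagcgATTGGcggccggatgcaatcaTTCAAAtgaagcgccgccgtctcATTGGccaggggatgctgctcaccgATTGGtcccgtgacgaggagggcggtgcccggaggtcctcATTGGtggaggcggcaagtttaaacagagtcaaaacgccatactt
NDC80: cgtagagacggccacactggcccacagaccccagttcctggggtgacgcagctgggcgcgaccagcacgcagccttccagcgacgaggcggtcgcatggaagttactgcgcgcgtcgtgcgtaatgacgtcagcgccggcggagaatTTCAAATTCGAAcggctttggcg
MKI67: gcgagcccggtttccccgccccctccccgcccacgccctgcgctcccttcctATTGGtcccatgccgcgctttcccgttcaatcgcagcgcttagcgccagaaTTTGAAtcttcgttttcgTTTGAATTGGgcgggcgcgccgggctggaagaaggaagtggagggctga
CDCA5: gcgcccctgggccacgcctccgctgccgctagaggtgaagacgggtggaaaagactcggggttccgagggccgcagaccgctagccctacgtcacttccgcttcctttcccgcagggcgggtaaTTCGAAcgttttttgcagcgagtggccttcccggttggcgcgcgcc
CENPE: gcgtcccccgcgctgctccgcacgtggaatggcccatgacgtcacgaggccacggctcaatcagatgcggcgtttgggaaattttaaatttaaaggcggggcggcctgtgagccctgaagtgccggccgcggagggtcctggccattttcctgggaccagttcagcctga
ASPM holds 1 CHR match and 4 CCAAT boxes, MKI67 holds 2 and 2, and its CHR match nearest the start shares a base with a CCAAT box. NDC80 holds 2 CHR matches side by side at the start and no CCAAT box, and CDCA5 holds 1 CHR match alone.

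Promoter windows of 300 bases, from 250 before to 50 after a start, were matched by symbol for 46 of the 56 listed genes, in 58 windows, since 8 genes had several. RACGAP1, CDCA2, PIMREG, FOXM1, KNL1, TPX2, FAM83D, BIRC5, UBE2C and BUB3 had no entry in the table. A CHR match was present in 41 of the 58 windows (70.7%), against 3046 of 22198 windows of all protein-coding genes (13.7%). Within 50 bases of the start the shares were 58.6% and 3.92%. A CCAAT box was present in 62.1% of the mitotic windows and 34.7% of all windows, and both elements in 29 of the 58 and in 1217 of the 22198 (5.48%). Genes of DNA replication and the G1/S transition are given beside them: 58.1% of their 43 windows held a CCAAT box, and 2 (4.65%) held a CHR match. These shares count letters, with no measure of binding, and promoters were not independent of how the genes came to be listed, since many are known by this architecture.

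**Figure D1:**
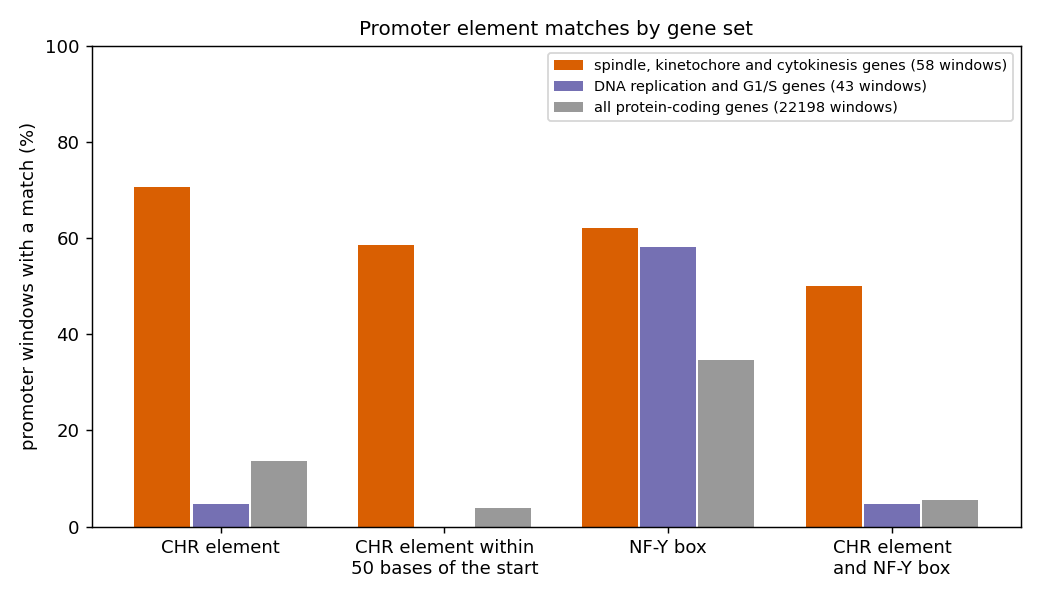
Share of promoter windows (y axis, %) that hold a CHR element, a CHR element within 50 bases of the start, an NF-Y box, or both elements, for spindle, kinetochore and cytokinesis genes (58 windows), DNA replication and G1/S genes (43 windows) and all protein-coding genes (22198 windows). The CHR element is in 70.7% of the mitotic windows, 4.65% of the replication windows and 13.7% of all windows.

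Apigenin alone against untreated cells asks what the flavone does to this machinery without a cytokine. Of the 53 genes, 34 fell, 3 rose and 16 did not pass the test. Over all 20572 genes, 6.83% fell and 4.55% rose. The median difference of the 53 was -0.62, against -0.02 over all genes. Called and at least 2-fold lower were 7 of the 53 genes, and 264 of all 20572. With the small RNA median as a covariate, 22 of the 53 fell and none rose, and the median was -0.52. With the replicate number as a block, 39 fell and 3 rose. All 37 calls remained there, and GTSE1, CDCA2, UBE2C, TPX2 and SGO1 were added. The shares of all genes belong to the main fit, and those of the other fits are not given. Here and below, counts from other fits therefore describe the listed genes only and cannot be set against all genes. RNA was measured in whole cultures, so fewer cells in G2 and mitosis and less of each RNA per cell cannot be told apart.

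Averaged over the 53 genes after each was centred on its own mean over the 12 arrays, the arrays stood at -0.33, -0.29 and -0.23 with apigenin, at -0.21, -0.28 and -0.21 with both agents, at 0.24, 0.09 and 0.27 with TNFα, and at 0.29, 0.25 and 0.41 in controls. All 6 arrays with apigenin were below all 6 without it. TNFα replicate 2 was the lowest of the arrays without apigenin. Its small RNA median was the highest of its group, 6.28 against 5.26 and 4.96 on the other TNFα arrays. With apigenin the array lowest in the 53 genes also had the highest small RNA median (6.81). In controls it had the middle one (5.71), and with both agents the lowest (5.97). A relation between the values was not tested.

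**Figure D2:**
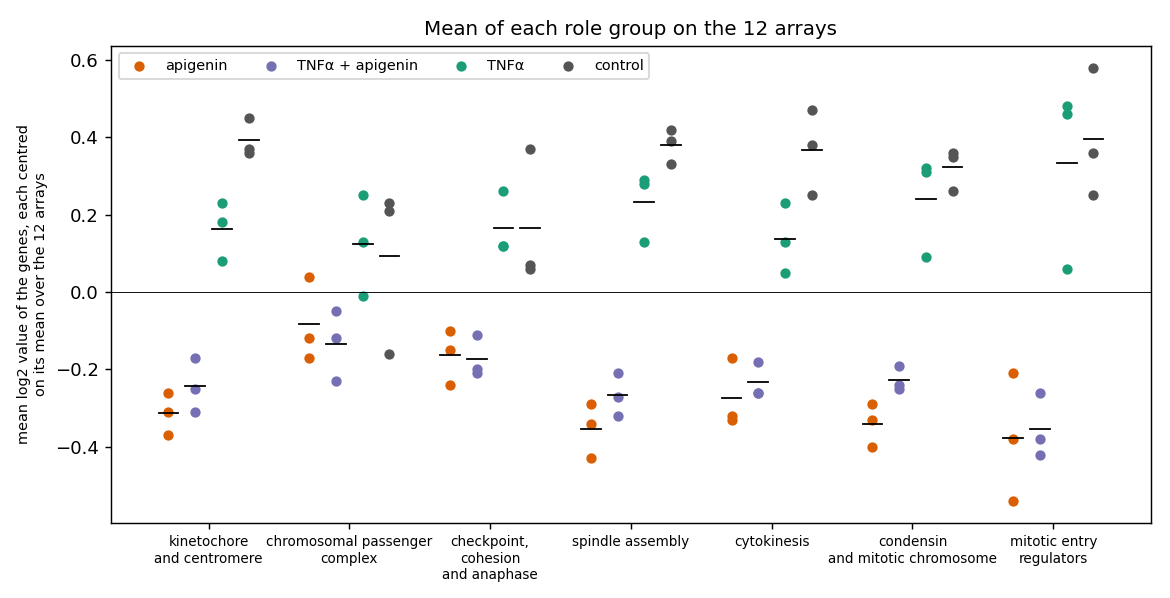
Mean log2 value of the genes of each of 7 roles on each array (points), each gene centred on its mean over the 12 arrays, with group means as bars. Apigenin and TNFα plus apigenin arrays lie below TNFα and control arrays in every role except the chromosomal passenger complex, where the groups overlap.

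Kinetochore and centromere genes had the lowest median of the 7 roles (-0.78). Of 12 genes, 8 fell, CENPN rose, and ZWINT, SKA1 and SKA3 did not pass. With the small RNA covariate 7 fell and none rose, and with the replicate block 8 fell and 1 rose. CENPE, the kinesin that captures microtubules and carries chromosomes to the spindle equator, read 6.24, 6.22 and 6.17 with apigenin, against 8.03, 8.16 and 7.98 in controls. This was the largest difference among the 53 genes (-1.85, SE 0.12, adjusted p = 1.31e-06), 3.6-fold lower, with no overlap. NDC80, the microtubule-binding subunit of the complex that bears its name, read 6.17, 6.44 and 6.35 with apigenin, against 7.67, 7.67 and 7.61 in controls (-1.33, SE 0.12, adjusted p = 1.66e-05).

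The 4 subunits of that complex all fell, 3 of them also with the small RNA covariate. SPC25, its inner subunit, read 4.14, 3.92 and 4.42 with apigenin and 5.52, 5.13 and 5.32 in controls (-1.16, SE 0.17, adjusted p = 7.49e-04). NUF2, the partner of NDC80, fell by 0.72 (SE 0.14, adjusted p = 0.00384), and with the covariate differed by -0.53 (adjusted p = 0.0521). SPC24, the fourth subunit and not one of the 53, differed by -1.48 (SE 0.13, adjusted p = 1.8e-05). The SKA complex, which couples NDC80 to shrinking microtubules, was different: SKA1 differed by 0.05 (95% interval -0.24 to 0.33) and SKA3 by -0.06 (-0.33 to 0.20). SKA2, named after its value was seen, differed by -0.01 (SE 0.13, adjusted p = 0.99).

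KNL1, the scaffold that recruits checkpoint proteins, read 5.97, 6.24 and 6.13 with apigenin, against 6.85, 6.99 and 7.17 in controls (-0.89, SE 0.14, adjusted p = 0.0012). CENPF, a large outer kinetochore protein made in G2, read 7.61, 7.90 and 7.67 with apigenin and 8.64, 8.81 and 8.73 in controls (2.0-fold lower, log2 SE 0.12, adjusted p = 1.25e-04). HJURP, the chaperone that deposits the centromeric histone, read 6.54, 6.90 and 6.52 with apigenin and 7.56, 7.38 and 7.53 in controls (-0.84, SE 0.13, adjusted p = 7.97e-04). None of the 3 genes overlapped between the groups. KNSTRN, the small kinetochore partner of SPAG5, fell by 0.70 (SE 0.12, adjusted p = 0.00179).

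Spindle assembly genes fell in 7 of 10 cases and rose in none, in 6 with the small RNA covariate and in 9 with the replicate block. ASPM, which focuses microtubules at the spindle poles, read 6.24, 6.64 and 6.31 with apigenin, against 7.81, 7.92 and 8.08 in controls (-1.54, SE 0.14, adjusted p = 1.68e-05). DLGAP5, which stabilises the microtubules next to chromosomes, read 7.11, 7.21 and 7.29 with apigenin and 8.64, 8.57 and 8.68 in controls (-1.43, SE 0.10, adjusted p = 2.9e-06). NUSAP1, a microtubule bundling protein, read 7.90, 7.82 and 7.90 with apigenin and 8.82, 8.74 and 8.79 in controls (-0.91, SE 0.10, adjusted p = 6.31e-05). In all 3 the apigenin arrays lay below every control array.

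CKAP5, a microtubule polymerase that cells use in interphase as well, read 7.94, 8.2 and 8.05 with apigenin and 8.73, 8.59 and 8.72 in controls (-0.62, SE 0.11, adjusted p = 0.00222). CKAP2 (-0.71), FAM83D (-0.68, with the covariate -0.69 and adjusted p = 0.0548) and CKAP2L (-0.56) fell too. TPX2, the activator of Aurora A on spindle microtubules, differed by -0.39 (SE 0.12, adjusted p = 0.0551) and GTSE1 by -0.49 (SE 0.16, adjusted p = 0.0648), neither past the test, while with the replicate block both fell (adjusted p = 0.0274 and 0.0207). TACC3, a clathrin-bound stabiliser of spindle fibres, differed by 0.03 (95% interval -0.29 to 0.35).

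**Figure D3:**
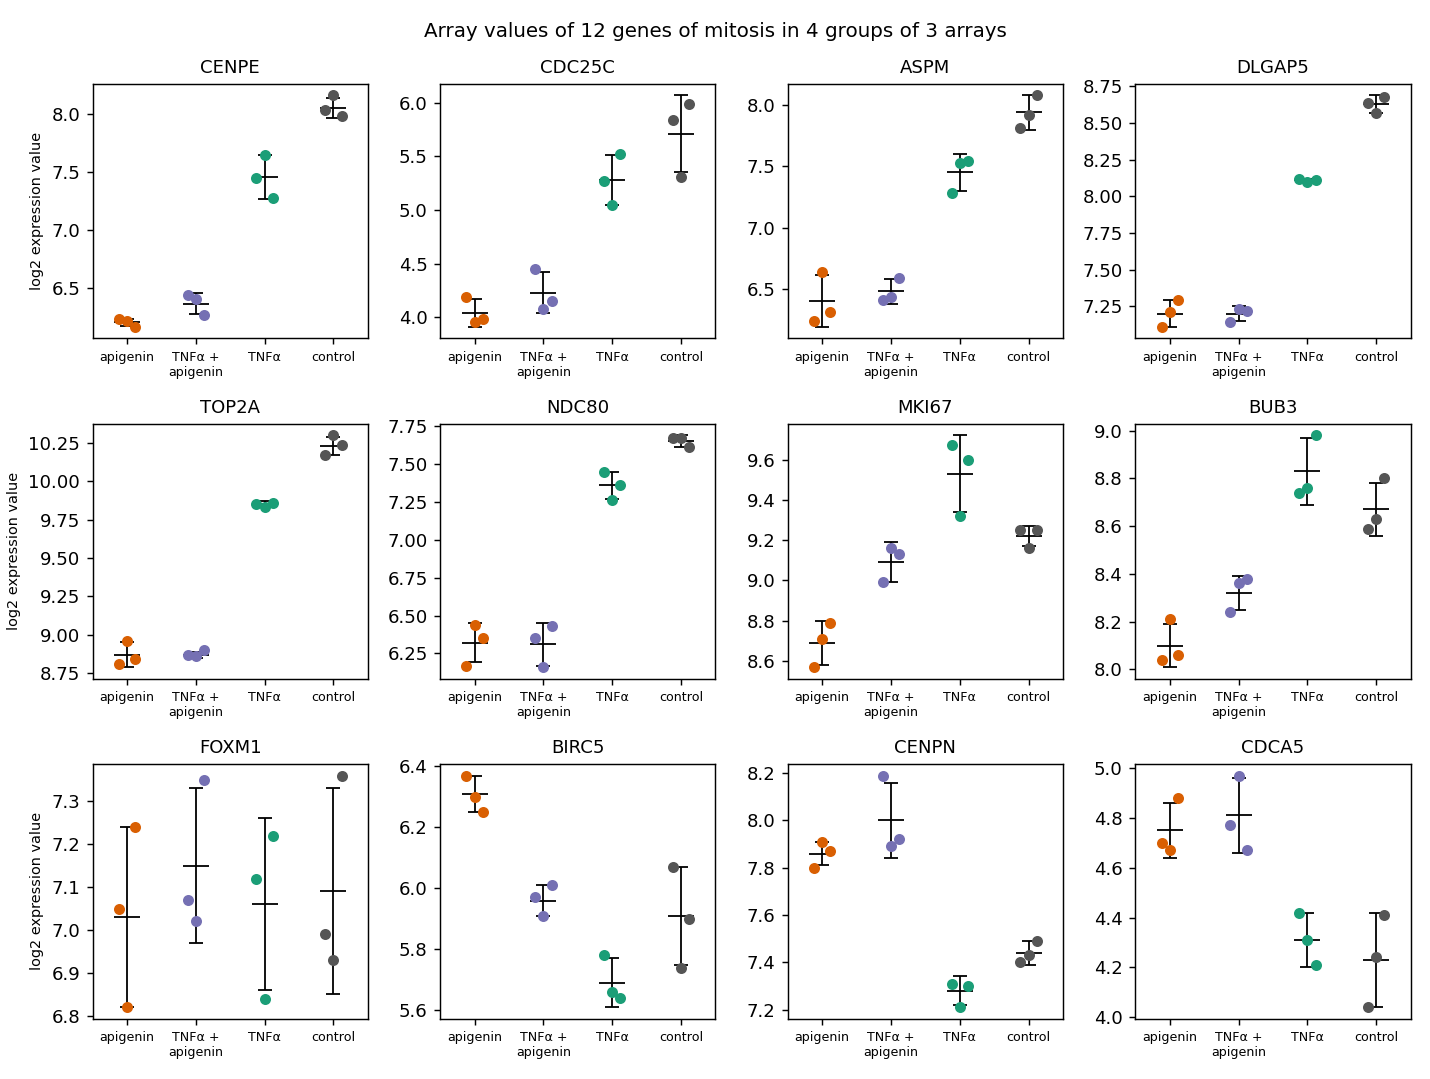
Log2 expression values (y axis) of 12 genes on each array (points), with group means and SD (bars), for apigenin, TNFα plus apigenin, TNFα and control (3 arrays each). In CENPE, CDC25C, ASPM, DLGAP5, TOP2A and NDC80 both groups with apigenin lie below both groups without it, FOXM1 overlaps in all 4 groups, and CENPN and CDCA5 are higher with apigenin.

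Regulators of mitotic entry fell in 4 of 5 cases, in 4 with the replicate block, and in 1 of 5, CDC25C, with the small RNA covariate. CDC25C, a phosphatase that activates the cyclin B kinase at the entry to mitosis, read 4.19, 3.96 and 3.98 with apigenin, against 5.84, 5.31 and 5.99 in controls (-1.67, SE 0.18, adjusted p = 6.8e-05), 3.18-fold lower. PIMREG, a mitotic regulator of the metaphase to anaphase transition, read 3.33, 3.14 and 3.61 with apigenin and 4.15, 4.20 and 4.47 in controls (-0.92, SE 0.18, adjusted p = 0.00528); with the small RNA median as a covariate it was -0.72 (adjusted p = 0.0681). CDC25B (-0.74, with the covariate -0.57 and adjusted p = 0.153) and CDCA3 (-0.50, with the covariate -0.45 and adjusted p = 0.129) fell as well. FOXM1, the transcription factor that drives many of the other genes, read 7.05, 6.82 and 7.24 with apigenin and 6.99, 6.93 and 7.36 in controls, which overlapped fully (-0.06, SE 0.16, 95% interval -0.40 to 0.29, adjusted p = 0.892).

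Of 8 condensin and mitotic chromosome genes, 6 fell, 4 with the small RNA covariate and 7 with the replicate block. TOP2A, the topoisomerase that untangles sister chromatids, read 8.81, 8.96 and 8.84 with apigenin, against 10.17, 10.30 and 10.24 in controls (-1.37, SE 0.10, adjusted p = 3.34e-06), 2.58-fold lower. In condensin I, the ring that compacts mitotic chromosomes, SMC4 (-0.77), NCAPD2 (-0.77), SMC2 (-0.69) and NCAPG (-0.58) fell. With the covariate NCAPG differed by -0.44 (limma adjusted p = 0.0744). NCAPH, the kleisin subunit of condensin I, differed by -0.17 (95% interval -0.45 to 0.11). MKI67, the proliferation antigen that coats mitotic chromosomes, read 8.57, 8.71 and 8.79 with apigenin and 9.25, 9.16 and 9.25 in controls (-0.53, SE 0.12, adjusted p = 0.0115), and with the covariate differed by -0.39 (adjusted p = 0.13). CDCA2, which targets a phosphatase to chromatin, differed by -0.45 (SE 0.18, adjusted p = 0.145), and fell with the replicate block (adjusted p = 0.0488).

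Cytokinesis genes fell in 4 of 5 cases, in 3 with the small RNA covariate and in 4 with the replicate block. ECT2 (-0.78) is the exchange factor that activates RhoA at the cleavage plane. CEP55 (-0.72) is the organiser of abscission, and ANLN (-0.69) the scaffold of the contractile ring. PRC1, the bundler of midzone microtubules, fell by 0.39, and with the small RNA covariate differed by -0.37 (limma adjusted p = 0.154). RACGAP1, the partner of ECT2, read near the low end of the scale, between 1.69 and 2.79 over the 12 arrays, and differed by -0.62 (SE 0.20, adjusted p = 0.0672).

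Checkpoint, cohesion and anaphase genes were divided. Of 10, CDC20 (-0.74), the activator of the anaphase-promoting complex, ESPL1 (-0.65), which is separase, BUB3 and SGO2 (-0.48), a protector of centromeric cohesin, fell, CDCA5 rose and 5 did not pass. With the small RNA covariate CDC20 alone of these fell. There ESPL1 differed by -0.53 (limma adjusted p = 0.233), BUB3 by -0.47 (0.0663) and SGO2 by -0.44 (0.211). With the replicate block UBE2C (-0.43, adjusted p = 0.0189) and SGO1 (-0.34, adjusted p = 0.0484) fell as well. BUB3, a checkpoint protein, read 8.04, 8.21 and 8.06 with apigenin and 8.59, 8.63 and 8.80 in controls (-0.57, SE 0.12, adjusted p = 0.0054). MAD2L1, the checkpoint protein that binds CDC20, read 6.89, 6.37 and 6.82 with apigenin and 7.03, 6.88 and 7.14 in controls, with overlap (-0.32, SE 0.15, adjusted p = 0.227). PTTG1, or securin, read only 2.1 to 3.01 over the 12 arrays. In the passenger complex, which corrects faulty attachments, INCENP fell (-0.59, adjusted p = 0.0236) and BIRC5 rose, as they did with the replicate block. With the covariate INCENP differed by -0.50 (limma adjusted p = 0.164). CDCA8 (-0.36, adjusted p = 0.215) did not pass. Nor did the kinase AURKB (-0.27, adjusted p = 0.193), which is not one of the 53 and was named after its value was seen.

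The other 3 called genes rose with apigenin. CDCA5, or sororin, which keeps cohesin closed in G2, read 4.70, 4.67 and 4.88 with apigenin, against 4.04, 4.24 and 4.41 in controls (0.52, SE 0.13, adjusted p = 0.0189). CENPN, which reads the centromeric nucleosome, read 7.80, 7.91 and 7.87 with apigenin and 7.40, 7.43 and 7.49 in controls (0.42, SE 0.11, adjusted p = 0.0246). BIRC5, or survivin, the passenger subunit that also inhibits apoptosis, read 6.37, 6.30 and 6.25 with apigenin and 6.07, 5.74 and 5.90 in controls (0.40, SE 0.11, adjusted p = 0.0339). No gene of the 3 overlapped between the groups. With the small RNA median as a covariate all 3 lost the call, while their differences stayed close to those of the main fit. They were 0.53 for CDCA5 (limma adjusted p = 0.0852), 0.49 for CENPN (0.0561) and 0.38 for BIRC5 (0.158). All 3 also lost the call in some fits with 1 array left out. CDCA5 was called in 10 of 15 alternative fits, and lost the call without control replicate 1 or apigenin replicate 3. CENPN was called in 7, and lost it without control replicate 1 or 2 or without any of the apigenin arrays. BIRC5 was called in 6, and lost it without control replicate 2 or 3 or without any of the apigenin arrays. Among the genes that fell, the call of PRC1 and SGO2 was lost in 5 of 6 fits with 1 array left out, that of ESPL1 and INCENP in 4, of CDC25B and CDCA3 in 3, of FAM83D in 2 and of MKI67 in 1.

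These 3 also ran against the rest across all 12 arrays. The correlation with the mean of the other members was -0.87 for CDCA5, -0.84 for CENPN and -0.67 for BIRC5, against 0.98 for NDC80. SKA1 (-0.33), TACC3 (0.03), SKA3 (0.13) and FOXM1 (0.15) showed little relation to it. The arrays share the 4 treatments, so these values mostly describe the group differences. CDCA5 and CENPN each hold a CHR match in their promoter window, as did 28 of the 40 windows of genes that fell and 8 of the 13 windows of genes that were not called.

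**Figure D4:**
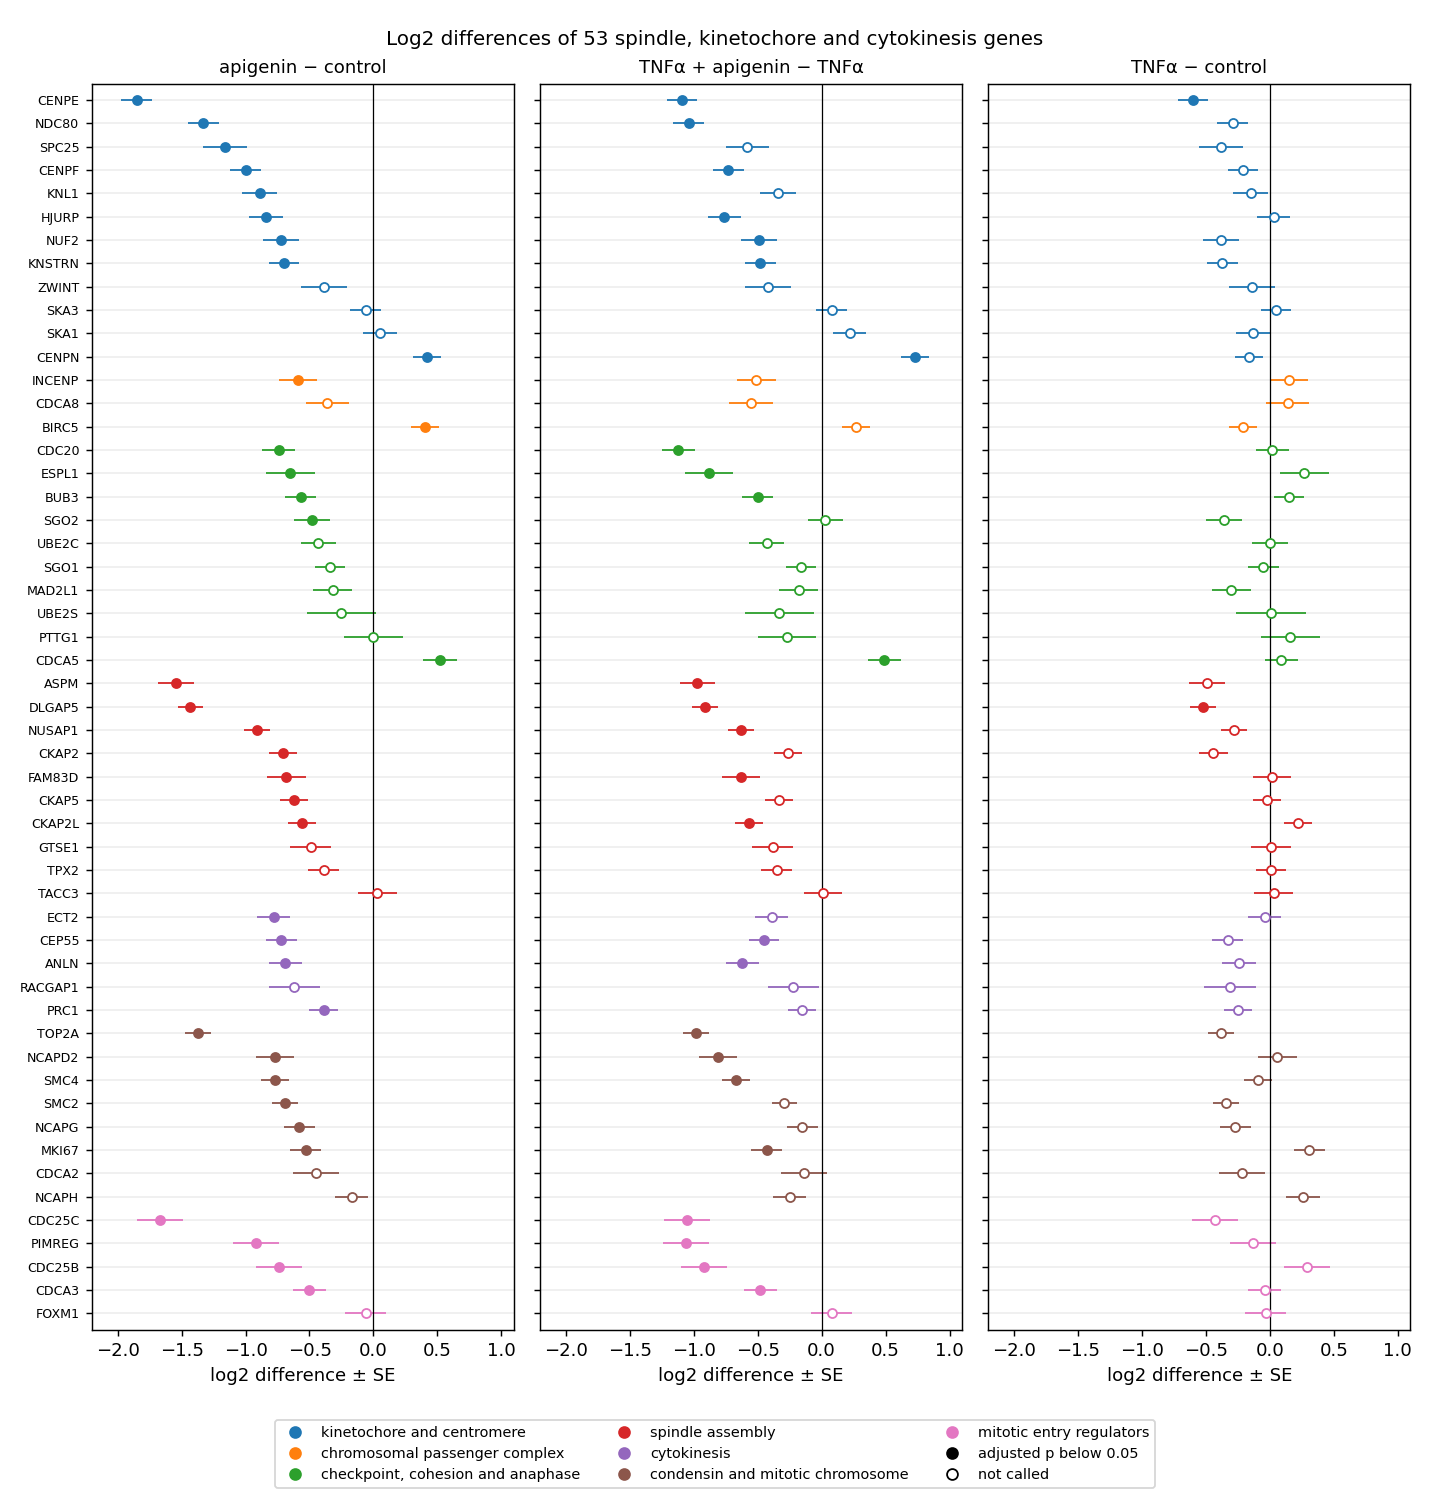
Log2 differences with SE (x axis) of the 53 genes, ordered by role and by the apigenin difference, between apigenin and control, between TNFα plus apigenin and TNFα, and between TNFα and control; filled points passed an adjusted p of 0.05. The differences with apigenin lie mostly left of 0 in both settings, and only CENPE and DLGAP5 are filled for TNFα.

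Both agents against TNFα alone asks for the apigenin difference in cells that also receive the cytokine. Of the 53 genes, 24 fell, 2 rose and 27 did not pass, and over all genes 5.92% fell and 4.21% rose. The median was -0.43, against -0.01 over all genes. Called and at least 2-fold lower were 5 of the 53 genes, and 229 of all 20572. With the replicate block 30 fell and 2 rose. Without TNFα replicate 2 the median was -0.53, and with the small RNA median as a covariate 17 fell and 1 rose, CEP55, NUF2, KNSTRN, FAM83D, BUB3, MKI67, CDCA3 and CDCA5 having lost their call.

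CDC20 had the largest fall in this comparison (-1.12, SE 0.13, adjusted p = 1.33e-04), reading 6.73, 6.72 and 6.63 with both agents and 7.96, 7.69 and 7.79 with TNFα. CENPE read 6.44, 6.41 and 6.27 with both agents, against 7.45, 7.65 and 7.28 with TNFα (-1.09, SE 0.12, adjusted p = 1.1e-04). PIMREG read 3.05, 3.10 and 3.10 with both agents and 4.53, 3.71 and 4.19 with TNFα (-1.06, SE 0.18, adjusted p = 0.00259). In these 3 genes every array with both agents was below every TNFα array. CEP55 lost its call in 6 of 6 fits with 1 array left out, MKI67 and NUF2 in 5, CDCA3 and FAM83D in 4, KNSTRN in 3 and BUB3 in 2.

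CDC25C (-1.05), NDC80 (-1.04), TOP2A (-0.98), ASPM (-0.97), DLGAP5 (-0.91) and ESPL1 (-0.88) fell as well. CENPN read 8.19, 7.89 and 7.92 with both agents, against 7.31, 7.21 and 7.30 with TNFα (0.73, SE 0.11, adjusted p = 0.00111). It was called in 15 of 15 alternative fits, some of which leave its own values unchanged. CDCA5 read 4.77, 4.97 and 4.67 with both agents and 4.42, 4.31 and 4.21 with TNFα (0.49, SE 0.13, adjusted p = 0.0284), and was called in 9 of 15, not without TNFα replicate 2 or 3 or combined replicate 1 or 2. BIRC5 read 5.97, 5.91 and 6.01 with both agents and 5.78, 5.66 and 5.64 with TNFα (0.27, SE 0.11, adjusted p = 0.17).

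By role, 6 kinetochore genes fell and 1 rose, no passenger gene was called, 3 checkpoint and anaphase genes fell and 1 rose, and 5 spindle assembly, 2 cytokinesis, 4 condensin and chromosome and 4 entry genes fell. With the small RNA covariate 4 kinetochore genes fell and 1 rose, and 2 checkpoint genes fell. The other falls were 4 spindle assembly, 1 cytokinesis, 3 condensin and chromosome and 3 entry genes. With the replicate block 7 kinetochore and 4 checkpoint genes fell, and 1 rose in each role. The other falls there were 2 passenger, 6 spindle assembly, 3 cytokinesis, 4 condensin and chromosome and 4 entry genes.

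The 2 apigenin comparisons share no array. The differences of the 53 genes correlated at 0.86 between them, against 0.76 over all genes, given as a description across genes that are not independent. The 24 genes that fell beside TNFα were 100% of that list and 70.6% of the 34 that fell without it. In the main fit no gene passed beside TNFα without passing in its absence, but this depended on the fit. With the replicate block CDCA8 fell only beside TNFα (limma adjusted p = 0.024, against 0.122 in its absence). With the small RNA covariate PIMREG, CDC25B and ESPL1 fell, and CENPN rose, only beside TNFα. In the main fit the 10 that fell without TNFα and did not pass beside it were KNL1, SPC25, INCENP, SGO2, CKAP5, CKAP2, ECT2, PRC1, NCAPG and SMC2. Of these SPC25, ECT2 and INCENP fell beside TNFα with the replicate block (limma adjusted p = 0.0185, 0.0424 and 0.00872). Of the genes that rose without TNFα, BIRC5 did not pass beside it. Of the 53 differences, 39 were less negative or more positive beside TNFα and 14 the reverse. Over all 20572 genes, 10608 were less negative or more positive beside TNFα and 9964 the reverse.

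The difference between the 2 apigenin differences was tested itself, as the interaction. None of the 53 genes passed an adjusted p of 0.05 in limma, against 0.0535% of all genes. An unadjusted p below 0.05 was found for 13 of the 53 and for 870 of all 20572 genes. The median was 0.14, against 0.01 over all genes. CENPE came nearest (0.76, SE 0.17, 95% interval 0.40 to 1.12, adjusted p = 0.395), followed by DLGAP5 (0.52, SE 0.14, adjusted p = 0.923). CDC20 lay at the other end (-0.39, SE 0.18, adjusted p = 0.999).

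**Figure D5:**
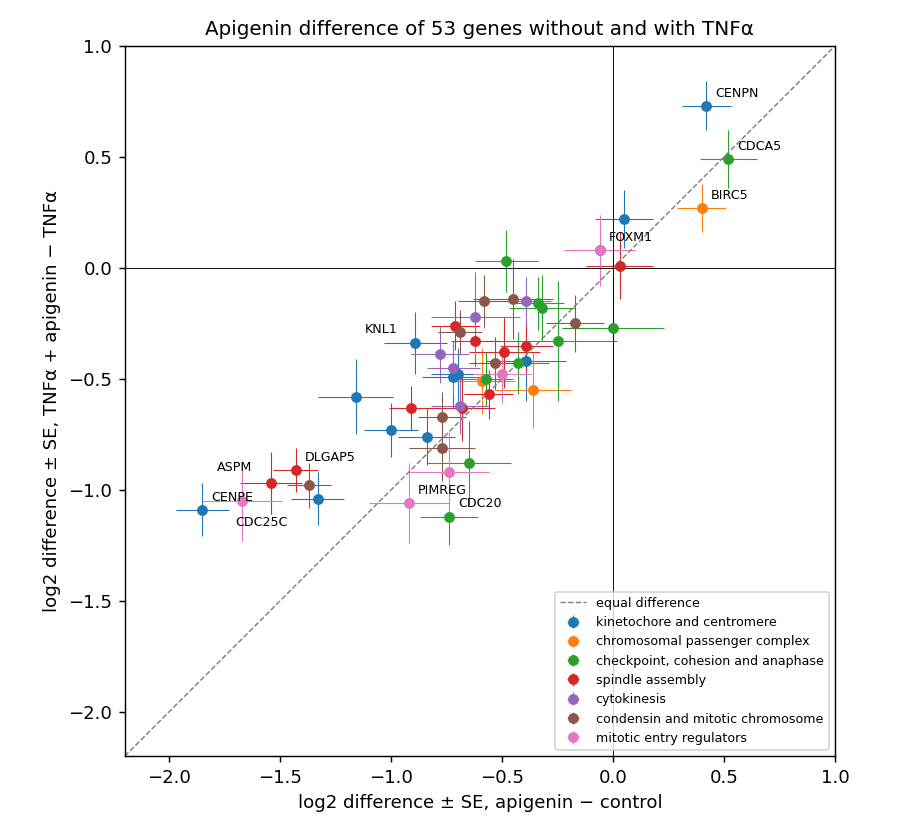
Log2 difference between TNFα plus apigenin and TNFα (y axis) against the difference between apigenin and control (x axis) for the 53 genes, with SE as bars and colours for roles. Most points lie in the lower left, 39 of 53 above the line of equal difference, with CDC20 and PIMREG below it and CENPN, CDCA5 and BIRC5 in the upper right. Over all 20572 genes, which are not drawn, 10608 would lie above the line.

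Both agents against untreated cells gives the net difference. Of the 53 genes, 29 fell and 2 rose, and over all genes 5.37% fell and 7.15% rose. The median was -0.49, against 0.00 over all genes. Called and at least 2-fold lower were 8 of the 53 genes, and 198 of all 20572. With the replicate block 35 fell and 2 rose, and with the small RNA covariate 22 fell and 2 rose. The values that follow are from the main fit. CENPE read 1.69 lower (difference -1.69, SE 0.12, adjusted p = 2.07e-06), followed by CDC25C (-1.48), ASPM (-1.46), DLGAP5 (-1.43), TOP2A (-1.36), NDC80 (-1.34), PIMREG (-1.19) and CDC20 (-1.10). CDCA5 (0.58, adjusted p = 0.00958) and CENPN (0.56, adjusted p = 0.00432) rose. MKI67, which had fallen in both apigenin comparisons, read 8.99, 9.16 and 9.13 with both agents and 9.25, 9.16 and 9.25 in controls, with overlap (-0.13, SE 0.12, adjusted p = 0.614).

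TNFα alone against untreated cells called 2 of the 53 genes, both lower, and none higher. Over all genes 0.219% fell and 0.778% rose. The median was -0.13, against 0.02 over all genes. An unadjusted p below 0.05 in limma was found for 17 of the 53 genes and for 2387 of all 20572. CENPE read 7.45, 7.65 and 7.28 with TNFα, against 8.03, 8.16 and 7.98 in controls (-0.60, SE 0.12, adjusted p = 0.0281). DLGAP5 read 8.12, 8.10 and 8.11 with TNFα and 8.64, 8.57 and 8.68 in controls (-0.52, SE 0.10, adjusted p = 0.0256). Neither overlapped.

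Both calls depended on the fit: CENPE was called in 8 of 15 alternatives (adjusted p 0.00897 to 0.185) and DLGAP5 in 7 (0.0036 to 0.196). With the replicate block both fell, and ASPM fell as well (limma adjusted p = 0.0422). With the small RNA covariate DLGAP5 alone fell (limma adjusted p = 0.0473). Leaving out control replicate 1 or 2, or TNFα replicate 1 or 3, ended both calls, leaving out control replicate 3 or TNFα replicate 2 ended that of DLGAP5, and without TNFα replicate 2 the median of the 53 was -0.03. ASPM (-0.49, adjusted p = 0.131), CKAP2 (-0.44, adjusted p = 0.105), CDC25C (-0.43, adjusted p = 0.379) and TOP2A (-0.38, adjusted p = 0.104) were lower without passing, and MKI67 (0.31, adjusted p = 0.348) stood highest. Among related genes outside the 53, SPC24 (-0.66, SE 0.13, adjusted p = 0.0287) and HMMR (-0.75, SE 0.15, adjusted p = 0.0259), a spindle pole protein, fell with TNFα.

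Both agents against apigenin alone called none of the 53 genes in limma. An unadjusted p below 0.05 was found for 6 of the 53 and for 1489 of all 20572 genes. Over all genes 0.0% fell and 0.209% rose. The median was 0.06, against 0.03 over all genes. MKI67 (0.40, SE 0.12, adjusted p = 0.418) and KNL1 (0.40, SE 0.14, adjusted p = 0.551) stood highest, and CDC20 (-0.36, SE 0.13, adjusted p = 0.531) and BIRC5 (-0.35, SE 0.11, adjusted p = 0.492) lowest. CENPE, lower with TNFα than in controls, read 6.44, 6.41 and 6.27 with both agents and 6.24, 6.22 and 6.17 with apigenin.

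The rest of the mitotic machinery was read from lists written beside the 53 genes, here between apigenin and control. Among 33 other spindle and cytokinesis genes 18 fell and 1 rose (median -0.53). With the small RNA covariate 11 fell and 1 rose, and with the replicate block 21 fell and 1 rose. The falls were led by PLK1 (-2.14, SE 0.13, adjusted p = 1.05e-06), the kinase that matures centrosomes and kinetochores. The motors KIF20A (-1.86) and KIF14 (-1.57) and the centrosomal kinase NEK2 (-1.74) came next. Of 31 other kinetochore and centromere genes 10 fell and 1 rose (median -0.25). With the small RNA covariate 8 fell and 1 rose, and with the replicate block 11 fell and 1 rose. ZWILCH (-1.26), KNTC1 (-1.05) and CENPI (-1.13) were among the falls, and MIS12 was higher (0.80, SE 0.13, adjusted p = 0.00158). ZWILCH and KNTC1 are subunits of the RZZ complex, which holds checkpoint proteins at kinetochores. Its other subunit ZW10, named after its value was seen, did not pass (-0.50, SE 0.16, adjusted p = 0.0595). It fell with the replicate block (limma adjusted p = 0.011) and did not pass with the small RNA covariate (0.358).

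Of 13 other condensin and cohesin genes 6 fell and none rose (median -0.40; none called with the small RNA covariate, 8 lower and 1 higher with the replicate block), led by NCAPD3 (-0.62) of condensin II and the cohesin genes STAG1 (-0.58), PDS5B (-0.56) and SMC3 (-0.55). The anaphase-promoting complex, which CDC20 and the members UBE2C and UBE2S serve, had no call in limma among 14 subunits and its regulators FZR1 and FBXO5 (median -0.04). An unadjusted p below 0.05 was found for 2 of the 16 and for 4638 of all 20572 genes. UBE2C (-0.43, adjusted p = 0.0566) and UBE2S (-0.25, adjusted p = 0.669) did not pass either. A list of 10 genes held 4 cyclins with CDK1, CKS1B, CKS2, WEE1, PKMYT1 and GMNN. Of these 3 fell, all cyclins: CCNB2 (-1.48), CCNB1 (-1.28) and CCNA2 (-0.76, with the covariate -0.71 and adjusted p = 0.0548). In the same list 3 fell with the replicate block and 2 with the small RNA covariate.

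Among 23 upstream regulators 4 fell and 2 rose (none lower and 1 higher with the small RNA covariate, 5 and 5 with the replicate block), among them CDKN1A, the kinase inhibitor p21, higher by 1.16 (SE 0.14, adjusted p = 1.8e-04), and RBL2, the pocket protein p130 of DREAM, lower (-1.08, SE 0.24, adjusted p = 0.00891). TFDP2 (-0.80) and E2F8 (-0.60) fell, and MYBL2 (-0.24, SE 0.12, adjusted p = 0.241) did not pass. Of the 39 genes of DNA replication and the G1/S transition, 4 fell and 7 rose (median 0.04). With the small RNA covariate 1 fell and 8 rose, and with the replicate block 7 fell and 8 rose. In the main fit ORC6 (1.35), CCNE1 (1.17) and FEN1 (1.11) were higher and POLE2 (-0.83) was lower. A link between promoter elements and the direction of change was not tested. Outside all lists, MYH10 (correlation 0.992), TMTC4 (0.989), SLC25A24 (0.988), RB1CC1 (0.986) and OSBPL3 (0.986) had the profiles over the 12 arrays most like the mean of the 53 genes. This likeness follows the group differences too: between apigenin and control MYH10 differed by -0.85 and RB1CC1 by -1.45.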

How the data were processed

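The series holds 12 Affymetrix whole-transcript arrays of MDA-MB-231 RNA, 3 in each of 4 groups. The authors deposited log2 values, 1 for each probe set and array, from Affymetrix Expression Console, a tool named in the submitters' processing notes. No source used here states its version, its summary algorithm or a genome build. Of the 53617 probe sets, 23871 carried 1 gene symbol in the platform annotation, 1842 several and 27904 none. Probe sets at or above the 25th percentile of their array (1.597 to 1.645) on 3 or more arrays were tested, 21895 in all, for 20572 genes; where several stood for a gene (549 genes), the one of highest mean over the 12 arrays was used.

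Group means were estimated for all 4 groups together with limma (version 3.58.1, R 4.3.3; lmFit, contrasts.fit, eBayes), and p-values were adjusted by Benjamini-Hochberg over all genes of a comparison. Adjusted p-values of single genes all come from limma, whose fit was tested on simulated data. Intervals are 95% intervals of the moderated fit, and the number of arrays limits the precision. The agents were prepared in HBSS per the labels' protocols, and no source used here says whether the controls received it. The members, lists and rules were chosen with earlier results of these data known. Every array value was given for the 12 members with the largest apigenin difference, those called higher with apigenin, those called with TNFα, and CKAP5, BUB3, MAD2L1 and FOXM1; MKI67 and CDC20 were added after their values were seen. Of each other list up to 4 called genes were named, plus PLK1, CDKN1A and MYBL2. Arrays are numbered 1 to 3 in each group. Deviations from the group means of same-numbered apigenin and control arrays correlated in all 3 pairs (0.102 to 0.332, median 0.269). In each other comparison 1 of the 3 pairs was below 0.1, but some medians were higher. They were 0.376 for TNFα and control, 0.337 for both agents and TNFα, and 0.322 for both agents and control. Blocked counts therefore stand beside the counts of comparisons that had calls. For apigenin against control, blocked values of the 53 genes are given where a call changes. Alternatives were another normalization, filters, probe sets and variance models, a replicate block, fewer arrays or groups, and the small RNA median as a covariate. Each of the 53 genes had 1 probe set, so the alternatives for filters and probe sets changed only the genes around it. Numbers of alternative fits with a call include these.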

Additional observations from a re-analysis of the deposited data

How the results depend on the processing

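No gene called among the 53 changed sign under any alternative, in the 4 comparisons that had calls. Between apigenin and control, calls among the 53 genes numbered 37 and ran from 28 to 34 with 1 array left out; 26 of the 37 were never lost so. The small RNA median as a covariate left 22 calls, all among the 37, and moved the median to -0.52. Between both agents and TNFα, 26 calls ran from 18 to 28 with 1 array left out, with a median of -0.53 to -0.40, and 18 of the 26 were never lost so. Between both agents and control the range was 22 to 25, against 31. The 2 calls between TNFα and control became 4 with quantile normalization (median -0.24) or with trend and robust variances, 1 with the small RNA covariate, and 0 without the 4 arrays numbered 3 or with only the 2 groups fitted; with 1 array left out they ran from 0 to 1 and the median from -0.15 to -0.03. The causes were not tested. Deviations of same-numbered arrays correlated at 0.018 to 0.464 (median 0.286), those of different numbers at -0.442 to 0.102 (median -0.0725), and in 34 of 36 cases an array correlated best with its own number in another group. This is a hint from the data that the numbers mark a shared origin; only between apigenin and control were all 3 pairs over 0.1. A replicate block gave 42 calls between apigenin and control, 32 between both agents and TNFα, 37 between both agents and control, 3 for TNFα (ASPM added) and 0 for the other comparisons, and all of the 37 and 26 calls above remained. RACGAP1 and PTTG1 read near the low end of the scale, and signal over background was not measured here.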
